A study of Mus musculus with 95 samples.

Results

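The binding of SUZ12 was compared between wild-type mouse embryonic stem cells and 6 lines that lack members of the PCGF family: Pcgf1-/-, Pcgf2/4-/-, Pcgf3/5-/-, Pcgf6-/-, Pcgf1/2/4-/- and Pcgf3/5/6-/-. The lists were chosen by the antibody named in the labels (Suz12), which gave 7 of the 95 samples and 7 of the 80 peak lists of the study. Together they held 44034 peaks: 6473 in wild-type, 5624 in Pcgf1-/-, 8077 in Pcgf2/4-/-, 6365 in Pcgf3/5-/-, 6704 in Pcgf6-/-, 5427 in Pcgf1/2/4-/- and 5364 in Pcgf3/5/6-/-. Each list came from 1 library, so no spread between replicate libraries could be given and no difference between peak lists was tested.

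All lines were E14 embryonic stem cells grown in serum medium with leukaemia inhibitory factor (LIF) and inhibitors of GSK3β and MEK1/2, and the wild-type control shared that medium. Knockouts were clones picked after transfection with Cas9 and guide RNAs. Lines without several genes were made by editing single-knockout clones again, so each genotype stands for the clone or clones used, and genotype and clone cannot be told apart. In the labels, Pcgf4 is the gene otherwise called Bmi1. Messenger RNA of the same 7 genotypes was sequenced in 2 libraries each.

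SUZ12 is a core subunit of Polycomb repressive complex 2 (PRC2), which methylates lysine 27 of histone H3 (H3K27me3). PCGF proteins belong to the other Polycomb complex, PRC1, whose RING1A or RING1B subunit ubiquitinates histone H2A (H2AK119ub1). PCGF2 and BMI1 mark canonical PRC1, which reads H3K27me3 through CBX proteins, whereas PCGF1, PCGF3, PCGF5 and PCGF6 belong to variant forms. In embryonic stem cells both complexes sit mainly at CpG islands of developmental genes that are little transcribed, and the comparison asks which SUZ12 sites differ when a given PCGF form is missing.

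Stretches of 300 bases around the summits of 5 SUZ12 peaks show the kinds of site described in the text. They are from the plus strand of NCBIM37 (mm9), 5′ to 3′, with every CpG dinucleotide in capitals. Hoxa10, a homeobox gene of the posterior body axis, had no promoter peak in Pcgf1/2/4-/-, and its stretch lies in coding exon sequence. Mael, a gene of the piRNA pathway that silences transposons in germ cells, had no peak in Pcgf6-/- or Pcgf3/5/6-/-, and 121 of its 300 bases are coding and none is in a UTR. Zcwpw1, a reader of histone methylation at meiotic recombination sites, had no wild-type peak but had one in 4 knockout lists, and its stretch lies in the gene outside exons. Aldh5a1, an enzyme of GABA breakdown, had a new peak in Pcgf2/4-/-, and 282 bases are coding. The last stretch lies outside genes beside Gm10837, in a peak 428 bp from the nearest wild-type peak, and held the second strongest new promoter peak of Pcgf6-/-.
Hoxa10, chr6:52184046-52184345: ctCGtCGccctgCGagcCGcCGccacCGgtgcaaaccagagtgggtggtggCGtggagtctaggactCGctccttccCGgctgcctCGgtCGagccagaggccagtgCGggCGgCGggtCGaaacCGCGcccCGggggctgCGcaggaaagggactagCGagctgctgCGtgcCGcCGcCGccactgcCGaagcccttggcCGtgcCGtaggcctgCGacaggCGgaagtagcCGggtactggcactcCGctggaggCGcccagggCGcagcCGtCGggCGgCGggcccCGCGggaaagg
Mael, chr1:168168421-168168720: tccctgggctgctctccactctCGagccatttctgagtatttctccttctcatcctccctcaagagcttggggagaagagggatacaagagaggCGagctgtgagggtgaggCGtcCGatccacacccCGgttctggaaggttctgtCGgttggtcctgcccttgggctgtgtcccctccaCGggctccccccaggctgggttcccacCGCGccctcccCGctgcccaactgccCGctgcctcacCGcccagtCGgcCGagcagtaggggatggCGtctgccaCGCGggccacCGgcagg
Zcwpw1, chr5:138229427-138229726: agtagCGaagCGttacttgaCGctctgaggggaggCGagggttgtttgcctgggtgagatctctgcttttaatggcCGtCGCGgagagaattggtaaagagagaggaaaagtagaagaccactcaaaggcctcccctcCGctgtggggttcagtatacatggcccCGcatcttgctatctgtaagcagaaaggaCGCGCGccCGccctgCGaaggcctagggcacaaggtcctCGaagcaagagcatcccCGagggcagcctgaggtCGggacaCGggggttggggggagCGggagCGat
Aldh5a1, chr13:25029102-25029401: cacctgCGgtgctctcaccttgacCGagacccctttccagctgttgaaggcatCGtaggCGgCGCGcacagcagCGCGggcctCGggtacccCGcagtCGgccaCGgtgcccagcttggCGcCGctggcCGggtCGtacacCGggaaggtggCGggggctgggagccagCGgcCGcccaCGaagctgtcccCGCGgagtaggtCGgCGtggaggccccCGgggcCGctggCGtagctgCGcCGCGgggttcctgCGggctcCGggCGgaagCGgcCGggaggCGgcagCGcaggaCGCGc
Gm10837, chr14:122886684-122886983: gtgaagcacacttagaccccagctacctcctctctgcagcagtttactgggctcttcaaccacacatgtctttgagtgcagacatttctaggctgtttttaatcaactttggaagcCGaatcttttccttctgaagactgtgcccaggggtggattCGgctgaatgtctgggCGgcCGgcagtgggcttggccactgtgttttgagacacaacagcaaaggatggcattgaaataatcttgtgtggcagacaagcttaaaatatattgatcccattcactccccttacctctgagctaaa
The stretches hold 39, 18, 20, 40 and 4 CpG dinucleotides in this order. Their ratios of observed to expected CpG are 0.947, 0.556, 0.790, 0.938 and 0.235. Over 45974 annotated starts of protein-coding genes, the median of this ratio for stretches of the same length was 0.594.

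The column 7 signal of a peak is the fold enrichment that the authors' peak caller wrote for it, and it is used here to rank peaks within a list. Where signals of several lists are printed side by side, they are as deposited, without scaling between lists. Median signal was 8.75 in wild-type, 8.47 in Pcgf1-/-, 8.35 in Pcgf2/4-/-, 8.52 in Pcgf3/5-/-, 10.1 in Pcgf6-/-, 6.88 in Pcgf1/2/4-/- and 7.71 in Pcgf3/5/6-/-. Median width was 935 bp in wild-type and, in the same order of knockouts, 898, 980, 865, 988.5, 703 and 975 bp. The lists covered 7.89 Mb in wild-type, then 6.68, 9.71, 7.52, 9.69, 4.89 and 7.11 Mb. A peak was placed at a promoter when it lay within 2.5 kb of a start of a protein-coding gene, which held for 71.4% of the wild-type peaks and 66.7% to 72.9% of the peaks of the other lists. Number and width of peaks both follow sequencing depth, and read depths of the ChIP libraries are not given in the files used here, so a difference in depth and a difference in binding cannot be told apart from the list totals. The Pcgf6-/- list also differs from the other 6 in its format: its peaks have generic names and its values fewer decimals. Whether its widths and signals were made in the same way was not tested.

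The strongest wild-type promoter peaks were shared by every line. The 8 with the highest signal belonged to Uncx (39.6), Tnxb (38.5), Nr5a1 (37.5), Alx4 (37.1), Vax1 (35.7), Gm1337 (35.6), Pitx1 (35.2) and Pax6 (34.5), and all 8 had a peak in all 6 knockout lists. Uncx, Alx4 (of skull and limb development), Vax1, Pitx1 and Pax6 encode homeobox transcription factors of embryonic patterning, Nr5a1 a nuclear receptor of the adrenal and gonad, and Tnxb an extracellular matrix protein. The peak at Alx4 had a signal of 34.1 in Pcgf1-/-, 27.8 in Pcgf2/4-/-, 41.8 in Pcgf3/5-/-, 44.1 in Pcgf6-/-, 20.9 in Pcgf1/2/4-/- and 25.2 in Pcgf3/5/6-/-. Its width was 3053 bp in wild-type, 7748 bp in Pcgf6-/- and 2168 bp in Pcgf1/2/4-/-. For Pitx1 the widths in the same 3 lists were 7731, 12822 and 2302 bp.

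A wild-type peak was called kept when a peak of the knockout list overlapped it by at least 1 bp, and lost otherwise; lost means that no peak was listed, not that binding was absent. In the lists as deposited, Pcgf2/4-/- lacked the fewest wild-type peaks, 529 or 8.17% (95% Wilson interval 7.53% to 8.87%), followed by Pcgf3/5-/- with 1016 or 15.7% (14.8% to 16.6%). Pcgf6-/- lacked 1336 or 20.6% (19.7% to 21.6%) and Pcgf1-/- 1420 or 21.9% (21.0% to 23.0%). The triple knockouts lacked the most, 1939 or 30.0% in Pcgf3/5/6-/- (28.9% to 31.1%) and 2170 or 33.5% in Pcgf1/2/4-/- (32.4% to 34.7%). New peaks, those that overlapped no wild-type peak, were 552 or 9.82% of the Pcgf1-/- list, 2309 or 28.6% of the Pcgf2/4-/- list and 1076 or 16.9% of the Pcgf3/5-/- list. They were 1725 or 25.7% of the Pcgf6-/- list, 672 or 12.4% of the Pcgf1/2/4-/- list and 825 or 15.4% of the Pcgf3/5/6-/- list. The intervals cover counting error only, and all 6 comparisons share the same wild-type list. The order among lines depends on list length, since Pcgf2/4-/- has the longest list. With each list limited to its 5364 strongest peaks, lost peaks were 705 in Pcgf3/5-/-, 712 in Pcgf2/4-/-, 831 in Pcgf1-/-, 1066 in Pcgf6-/-, 1198 in Pcgf3/5/6-/- and 1366 in Pcgf1/2/4-/-. New peaks were then 789 in Pcgf1-/-, 860 in Pcgf3/5-/-, 867 in Pcgf2/4-/-, 894 in Pcgf1/2/4-/-, 1116 in Pcgf3/5/6-/- and 1181 in Pcgf6-/-. The triple knockouts lacked the most peaks at either length, but Pcgf2/4-/- no longer had the fewest lost or the most new peaks.

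**Figure D1:**
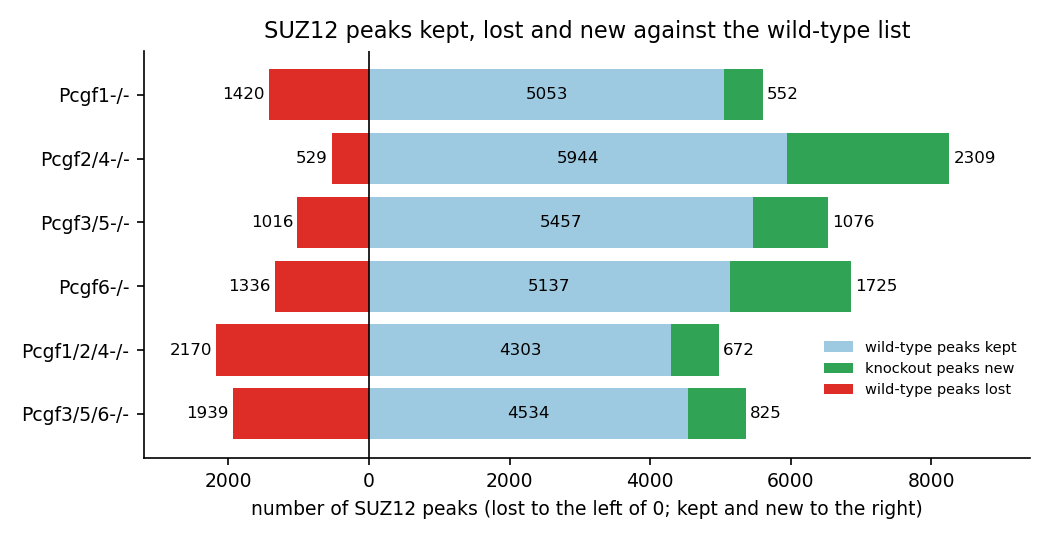
Number of SUZ12 peaks (x axis) for each knockout line (y axis): wild-type peaks lost are drawn to the left of 0, wild-type peaks kept and knockout peaks that are new to the right. In the lists as deposited, Pcgf2/4-/-, the longest list, has the fewest lost peaks (529) and the most new ones (2309), which does not hold for lists of equal length, and Pcgf1/2/4-/- has the most lost peaks (2170).

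Joined over all lists, the peaks formed 9782 regions. Of these, 2777 regions (28.4%) held a peak in all 7 lists, with a median width of 2096 bp, and 76.5% of them lay at promoters. Another 2790 regions held a peak in 1 list only, with a median width of 427 bp, and 52.6% of them lay at promoters. The single-list regions came mostly from Pcgf2/4-/- (1054) and Pcgf6-/- (885), and the wild-type list alone gave 104.

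Lost peaks were the weak and narrow end of the wild-type list. The median wild-type signal of peaks lost in Pcgf1-/- was 5.82 against 10.3 for kept peaks, and the other lines ran from 5.65 against 9.27 in Pcgf2/4-/- to 6.17 against 11.2 in Pcgf1/2/4-/-. Median widths of lost peaks were 449 to 573 bp, and those of kept peaks 984 to 1167 bp. With the wild-type peaks split by signal into 4 equal groups, the share lost in the weakest group was 55.8% in Pcgf1-/-, 24.1% in Pcgf2/4-/-, 45.5% in Pcgf3/5-/-, 44.9% in Pcgf6-/-, 69.7% in Pcgf1/2/4-/- and 62.3% in Pcgf3/5/6-/-. In the strongest group the shares were 0.309%, 0%, 0%, 0.989%, 2.78% and 1.55%. Every one of the 80 wild-type peaks of at least 5 kb was kept in every line, which allows a lost share of up to 4.58% for each line.

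**Figure D2:**
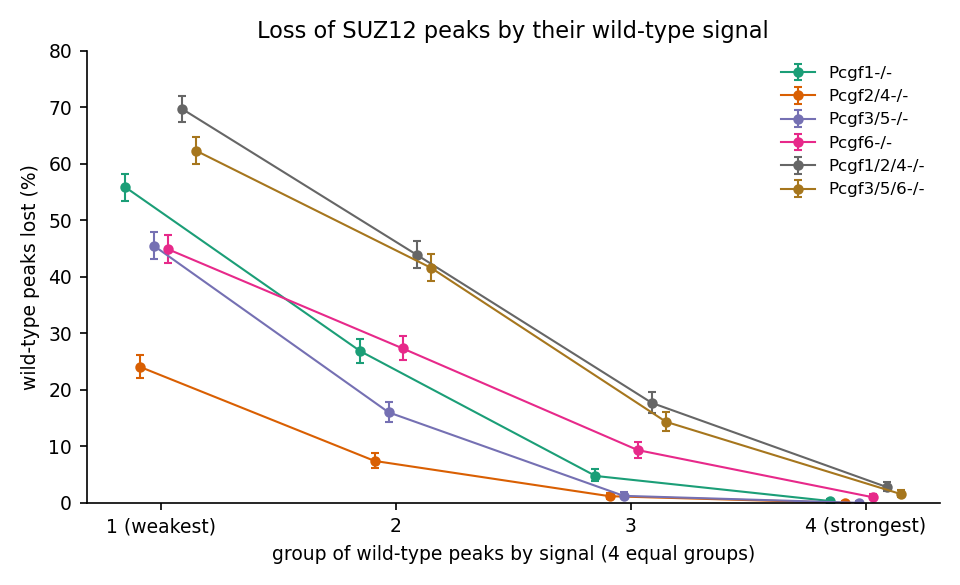
Share of wild-type SUZ12 peaks lost (y axis, percent, with 95% Wilson intervals) in 4 equal groups of the wild-type list ordered by signal (x axis), 1 line per knockout. All 6 lines fall from left to right, and the triple knockouts lie above the other lines in each group.

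The place of lost peaks differed between lines. In Pcgf6-/-, 72.2% of lost peaks and 71.2% of kept peaks lay at promoters. In Pcgf2/4-/- the shares were 54.4% and 72.9%, in Pcgf1-/- 63.2% and 73.7%, in Pcgf3/5-/- 61.4% and 73.3%, in Pcgf1/2/4-/- 69.0% and 72.6%, and in Pcgf3/5/6-/- 67.8% and 73.0%. Within the second weakest of the 4 signal groups, Pcgf6-/- lacked 30.8% of promoter peaks and 19.8% of the others, and within the third group 10.6% and 5.69%. Pcgf2/4-/- went the other way, with 6.39% and 9.68% in the second group and 20.0% and 31.4% in the first. Lost peaks of Pcgf6-/- also had a median CpG ratio of 0.729, whereas those of Pcgf2/4-/- had 0.585, and the kept peaks of all lines had 0.745 to 0.766.

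New peaks were weak and narrow within their own lists as well. Their median signal was 5.71 against 9.09 for peaks shared with wild-type in Pcgf1-/-, 5.88 against 10.3 in Pcgf2/4-/-, 5.67 against 9.83 in Pcgf3/5-/-, 7.39 against 12.2 in Pcgf6-/-, 5.45 against 7.28 in Pcgf1/2/4-/- and 5.71 against 8.37 in Pcgf3/5/6-/-. New peaks of Pcgf1-/- and Pcgf2/4-/- lay mostly at promoters, 72.6% and 65.7%, with median CpG ratios of 0.753 and 0.701. New peaks of Pcgf6-/- lay at promoters in 46.9% of cases, between genes in 30.8% and in introns in 15.5%, and their median CpG ratio was 0.422. The Gm10837 stretch printed above, with 4 CpG dinucleotides, is one of them, and the Aldh5a1 stretch with 40 is a new peak of Pcgf2/4-/-. Of the new peaks of Pcgf6-/-, 54.9% lay within 5 kb of a wild-type peak, and of those of Pcgf3/5/6-/- 54.1%. The share was 21.2% to 29.4% in the other 4 lines. Pcgf1/2/4-/- had 46.3% of new peaks at promoters and a median CpG ratio of 0.587, but 23.8% of them lay near wild-type peaks.

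Peaks that were kept also differed in width. A kept wild-type peak of Pcgf1/2/4-/- had a median ratio of knockout to wild-type width of 0.756, and 21.3% of kept peaks were at least 2-fold narrower. In Pcgf6-/- the median ratio was 1.195 and 18.3% were at least 2-fold wider, and in Pcgf2/4-/- it was 1.15 with 15.0% at least 2-fold wider. The ratios in Pcgf1-/-, Pcgf3/5-/- and Pcgf3/5/6-/- were 0.946, 0.975 and 1.01. Pcgf6-/-, the list with the different format, had 228 peaks over 5 kb, wild-type 80 and Pcgf1/2/4-/- 10. The ratio of covered bases to wild-type was 0.619 in Pcgf1/2/4-/- (4.89 Mb against 7.89 Mb) and 1.23 in both Pcgf6-/- (9.69 Mb) and Pcgf2/4-/- (9.71 Mb).

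The Hox clusters, which hold the homeobox genes that pattern the body axis, showed the widths most plainly. In wild-type, peaks covered 46.9% of the Hoxa cluster (chr6:52105366-52210874), 23.5% of Hoxb (chr11:96055630-96229570), 32.9% of Hoxc (chr15:102751534-102867274) and 44.9% of Hoxd (chr2:74506367-74603200). In Pcgf6-/- the peaks covered 77.7%, 47.9%, 65.5% and 76.2% of the same clusters. In Pcgf3/5/6-/- they covered 63.1%, 27.1%, 54.6% and 55.8%. Pcgf1/2/4-/- had the lowest cover in each cluster, 13.5%, 10.6%, 5.65% and 20.4%. Pcgf1-/-, Pcgf2/4-/- and Pcgf3/5-/- covered 42.5% to 48.6% of Hoxa, 19.7% to 23.9% of Hoxb, 18.7% to 22.3% of Hoxc and 44.1% to 50.8% of Hoxd. In base pairs, Hoxa had 49.5 kb under 21 peaks in wild-type, 82.0 kb under 18 peaks in Pcgf6-/- and 14.3 kb under 17 peaks in Pcgf1/2/4-/-. Of 39 Hox genes, 36 had a promoter peak in wild-type, 39 in Pcgf6-/-, 38 in both Pcgf2/4-/- and Pcgf3/5/6-/-, 35 in both Pcgf1-/- and Pcgf3/5-/-, and 30 in Pcgf1/2/4-/-.

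**Figure D3:**
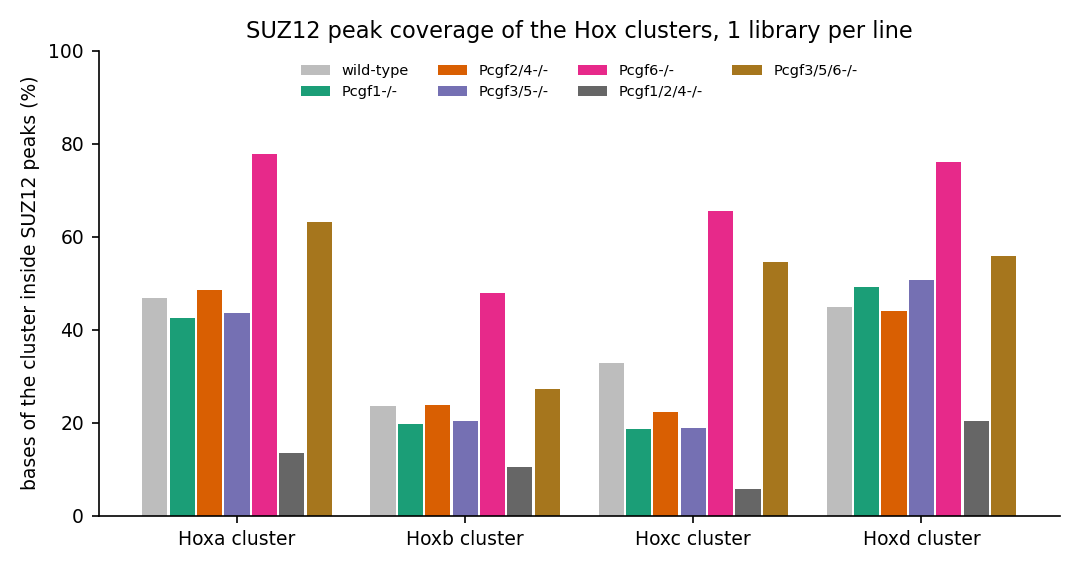
Share of bases inside SUZ12 peaks (y axis, percent) in the 4 Hox clusters (x axis) for the 7 lists, 1 library each. Pcgf6-/- has the highest bar in each cluster and Pcgf1/2/4-/- the lowest.

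At the level of genes, 3606 of 22232 protein-coding genes (16.2%) had a SUZ12 promoter peak in wild-type. Of these, 580 (16.1%) had none in Pcgf1-/-, 135 (3.74%) in Pcgf2/4-/-, 368 (10.2%) in Pcgf3/5-/-, 741 (20.5%) in Pcgf6-/-, 945 (26.2%) in Pcgf1/2/4-/- and 1002 (27.8%) in Pcgf3/5/6-/-. Of the 18626 genes without a wild-type promoter peak, 284 (1.52%) had one in Pcgf1-/-, 1124 (6.03%) in Pcgf2/4-/-, 469 (2.52%) in Pcgf3/5-/-, 296 (1.59%) in Pcgf6-/-, 221 (1.19%) in Pcgf1/2/4-/- and 246 (1.32%) in Pcgf3/5/6-/-. These shares are the background for the gene groups described next. In 97.8% or more of the genes that had none in a line, the wild-type promoter peaks themselves were also lost by the overlap rule.

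The wild-type lists of PCGF6 and WDR5 overlapped more of the lost than of the kept peaks in Pcgf6-/-, and fewer in the lines that keep PCGF6. A wild-type peak of PCGF6 overlapped 15.5% of the SUZ12 peaks lost in Pcgf6-/- and 7.61% of those kept, and the shares in Pcgf3/5/6-/- were 11.1% and 8.45%. In the 4 lines that keep PCGF6 the lost peaks had 2.66% to 4.73% and the kept peaks 9.64% to 11.8%. WDR5, a subunit of the PCGF6 complex and of H3K4 methyltransferases, had a wild-type peak at 14.6% of the peaks lost in Pcgf6-/- and 5.96% of those kept, and at 3.05% and 8.61% in Pcgf3/5-/-. H3K4me3, a mark of active promoters, overlapped 87.8% of the peaks lost in Pcgf6-/- and 85.2% of those kept, and 83.9% and 86.5% in Pcgf3/5/6-/-. In the other lines it overlapped 52.6% to 77.6% of lost and 88.7% to 89.8% of kept peaks. H3K27me3 overlapped fewer of the lost than of the kept peaks in every line, 23.6% and 66.3% in Pcgf6-/- and 27.2% to 34.2% and 59.9% to 69.7% in the others.

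PCGF2, of canonical PRC1, had more overlap with kept than with lost peaks in every line. Its wild-type list overlapped 54.5% to 66.1% of kept peaks over the 6 lines, 6.89% to 23.6% of lost peaks and 0.522% to 3.44% of new peaks. Wild-type RING1B overlapped 81.6% to 89.3% of kept peaks, 41.8% to 60.6% of lost peaks and 7.13% to 27.2% of new peaks. Since lost and new peaks were narrower than kept ones, and a narrow peak has less room to overlap another, the part of width in these shares was not tested.

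**Figure D4:**
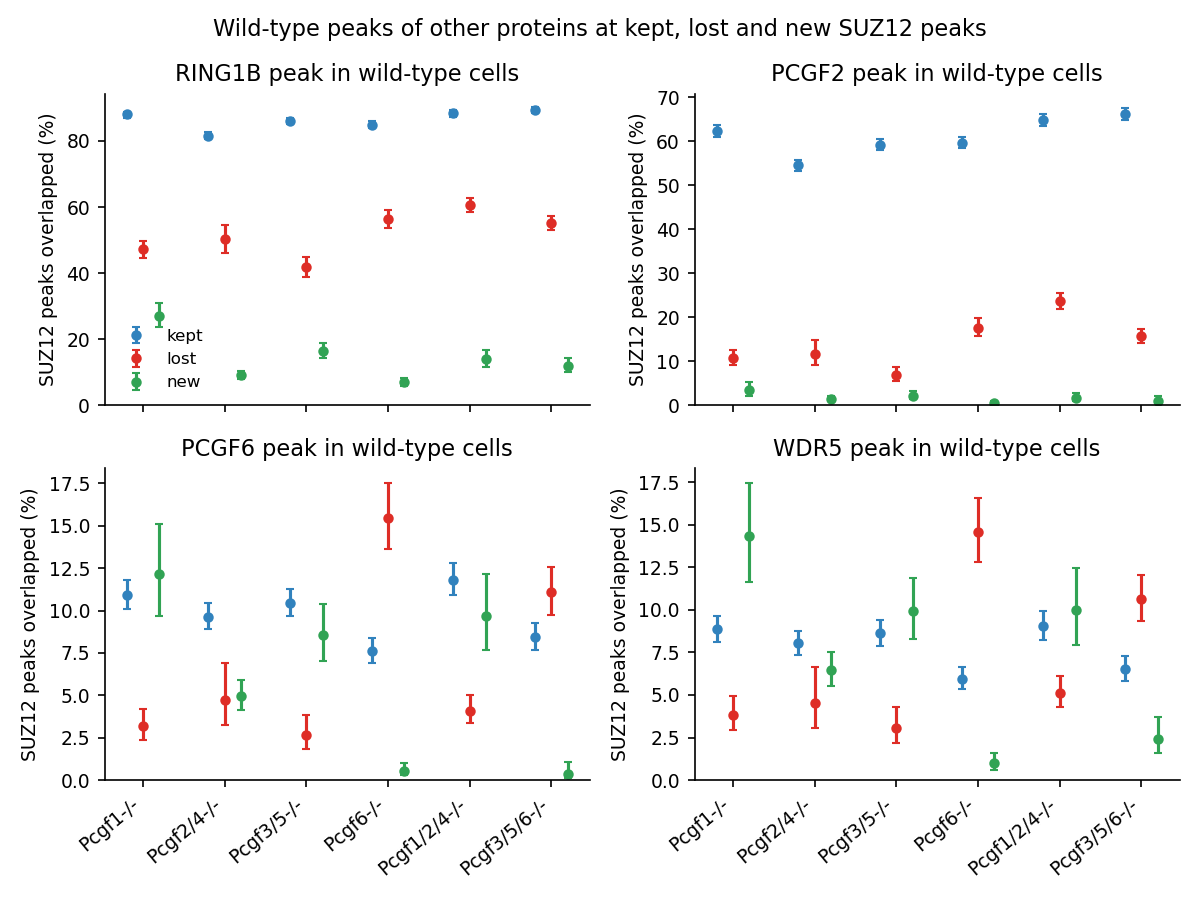
Share of kept, lost and new SUZ12 peaks of each knockout line (x axis) that overlap a wild-type peak of RING1B, PCGF2, PCGF6 or WDR5 (y axis, percent, with 95% Wilson intervals). For PCGF6 and WDR5 the lost peaks lie above the kept ones in Pcgf6-/- and Pcgf3/5/6-/- and below them in the other 4 lines.

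RING1B was also mapped in the knockout lines. Peaks of SUZ12 that were lost had a RING1B peak of the same line in 21.8% of cases in Pcgf1-/-, 7.75% in Pcgf2/4-/-, 19.7% in Pcgf3/5-/-, 9.88% in Pcgf6-/- and 1.14% in Pcgf3/5/6-/-. In Pcgf1/2/4-/-, which has 2 RING1B lists, the shares were 4.42% and 3.64%. New SUZ12 peaks had one in 56.0% of cases in Pcgf1-/-, 18.9% in Pcgf2/4-/-, 35.2% in Pcgf3/5-/-, 51.3% in Pcgf6-/-, 11.3% and 11.5% in Pcgf1/2/4-/- and 13.3% in Pcgf3/5/6-/-. Kept SUZ12 peaks of Pcgf1/2/4-/- overlapped RING1B in 22.9% and 18.5% of cases, against 87.1% in Pcgf6-/-. The RING1B lists behind these shares held 2051 and 1814 peaks in Pcgf1/2/4-/-, 3068 in Pcgf3/5/6-/- and 5563 to 5696 in the other lines.

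Germline genes lost promoter peaks in both lines in which Pcgf6 was targeted. Of 20 germline genes, 7 had a wild-type promoter peak: Mei1, Tdrkh, Hormad1, Mael, Sycp1, Ddx4 and Tdrd1. In Pcgf6-/- 6 of the 7 had none, all but Mei1, against 20.5% of all bound genes, and in Pcgf3/5/6-/- 7 of 7 had none, against 27.8%. These peaks were weak: the median wild-type signal of the 7 genes was 6.00, against 10.2 over all bound genes. In the weakest of the 4 signal groups (up to 6.27), Pcgf6-/- lacked 44.9% of wild-type peaks and Pcgf3/5/6-/- 62.3%. The part of signal in the germline counts was not tested. Pcgf1-/- lacked 1 of the 7, Hormad1, and Pcgf2/4-/-, Pcgf3/5-/- and Pcgf1/2/4-/- lacked 0. In the opposite direction, 3 germline genes had a new promoter peak in Pcgf1-/-, 3 in Pcgf2/4-/-, 5 in Pcgf3/5-/- and 6 in Pcgf1/2/4-/-, of 13 that were unbound in wild-type, and 0 in Pcgf6-/- and Pcgf3/5/6-/-. Over all unbound genes the shares with a new peak were 1.52%, 6.03%, 2.52%, 1.19%, 1.59% and 1.32% in the same order. The germline list overlaps genes that earlier work on these data had already shown to be raised in Pcgf6-/-, so its direction is not independent evidence.

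Tdrkh, which encodes a Tudor protein of the piRNA pathway, had a SUZ12 signal of 7.72 in wild-type, 15.5 in Pcgf1-/-, 14.3 in Pcgf2/4-/-, 12.1 in Pcgf3/5-/- and 16.6 in Pcgf1/2/4-/-, and no peak in the other lists. Mael had 6.00 in wild-type, then 7.69, 9.17, 11.1 and 7.14 in the same order, and again none in Pcgf6-/- and Pcgf3/5/6-/-. Both promoters were therefore bound in the 5 lines that keep Pcgf6 and listed in neither line in which that gene was targeted. Sycp1, of the synaptonemal complex that joins meiotic chromosomes, had signals of 5.96, 10.5, 11.6, 11.5 and 10.6 in those 5 lists. Mei1, which is needed for meiotic DNA breaks, had 12.2 in wild-type, 6.14 in Pcgf6-/- and none in Pcgf3/5/6-/-. Zcwpw1, whose new peak is printed above, had 5.04 in Pcgf1-/-, 6.73 in Pcgf2/4-/-, 8.91 in Pcgf3/5-/- and 10.4 in Pcgf1/2/4-/-. Sohlh2, a transcription factor of germ cell differentiation, had 5.71, 5.51, 9.38 and 5.42 in these lists and no wild-type peak.

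Of the 7 wild-type stretches of 300 bases at germline promoter peaks lost in Pcgf6-/- or Pcgf3/5/6-/-, 3 held CACGTG, the E-box read by MAX and MGA of the PCGF6 complex, and 2 held TTCCCGC, an E2F site, counted on both strands. Of all 45974 starts, 7.09% held CACGTG and 6.32% held TTCCCGC in stretches of the same length. Of all 1336 peaks lost in Pcgf6-/-, 7.34% held CACGTG and 9.66% TTCCCGC, against 5.67% and 7.90% of the wild-type peaks kept there. The 7 stretches thus do not stand for the lost peaks as a whole. Other motifs, among them GCGCGC, were also searched for, and their counts in the 7 stretches are not reported here. The Mael stretch printed above holds neither.

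Expression of the same genes was read from the RNA-seq counts, and the wild-type libraries, which differed by less than sampling noise, are given as their mean. Both entered the fit as separate libraries, so its p-values count them as 2. With the pair summed into 1 library, 72 of the 78 differences of named genes stayed on the same side of the threshold. In such bulk samples fewer cells of a type and less RNA per cell cannot be told apart. Mael stood at a mean of 22.0 CPM (counts scaled to the library total) in wild-type, at 194 and 219.8 CPM in the Pcgf6-/- libraries and at 237 and 244 CPM in the Pcgf3/5/6-/- libraries. Both lines lay far above wild-type, by log2 fold changes of 3.23 (SE 0.13, edgeR adjusted p = 4.07e-10) and 3.45 (SE 0.13, edgeR adjusted p = 3.77e-10). Tdrkh went from 5.19 CPM to 137 and 148 CPM in Pcgf6-/- and to 129.9 and 136 CPM in Pcgf3/5/6-/-, log2 fold changes of 4.78 and 4.68. In Pcgf3/5-/-, where the Mael promoter had a SUZ12 peak of 11.1, Mael stood at 5.48 and 5.18 CPM and was lowered by a log2 fold change of -2.04 (SE 0.18, edgeR adjusted p = 3.05e-06). Over the germline list in that line, 9 of 20 genes were raised and 4 lowered, with a median log2 fold change of 0.30.

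Of the 20 germline genes, edgeR called 19 raised and 1 lowered in Pcgf6-/-, where 27.8% of all tested genes were raised and 18.6% lowered. In Pcgf3/5/6-/- 18 were raised and 1 lowered, where 28.0% of tested genes were raised and 25.3% lowered. The median log2 fold changes were 3.44 and 3.13, beside 0.03 and 0.05 over all genes tested. Of the 20 genes, 15 had a SUZ12 promoter peak in at least 1 list, so some raised genes had none in any list. Hormad1, of the meiotic chromosome axis, was raised in Pcgf6-/- from 71.8 CPM to 163 and 181 CPM, by a log2 fold change of 1.26 (SE 0.15, edgeR adjusted p = 9.1e-06). In Pcgf3/5/6-/-, where its promoter peak was also lost, it stood at 63.8 and 64.9 CPM and was not called (edgeR adjusted p = 0.425). Sohlh2, with a new SUZ12 peak in 4 lines, stood at 35.9 CPM in wild-type and was raised in Pcgf3/5-/- (110 and 107 CPM, log2 fold change 1.59) and in Pcgf2/4-/- (0.58), and lowered in Pcgf1/2/4-/- (10.7 and 12.6 CPM, log2 fold change -1.61) and in Pcgf1-/- (-0.53). The call in Pcgf2/4-/- was lost without the second wild-type library (0.45), and that in Pcgf1-/- without the first wild-type library (-0.39) or the second Pcgf1-/- library (-0.31).

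**Figure D5:**
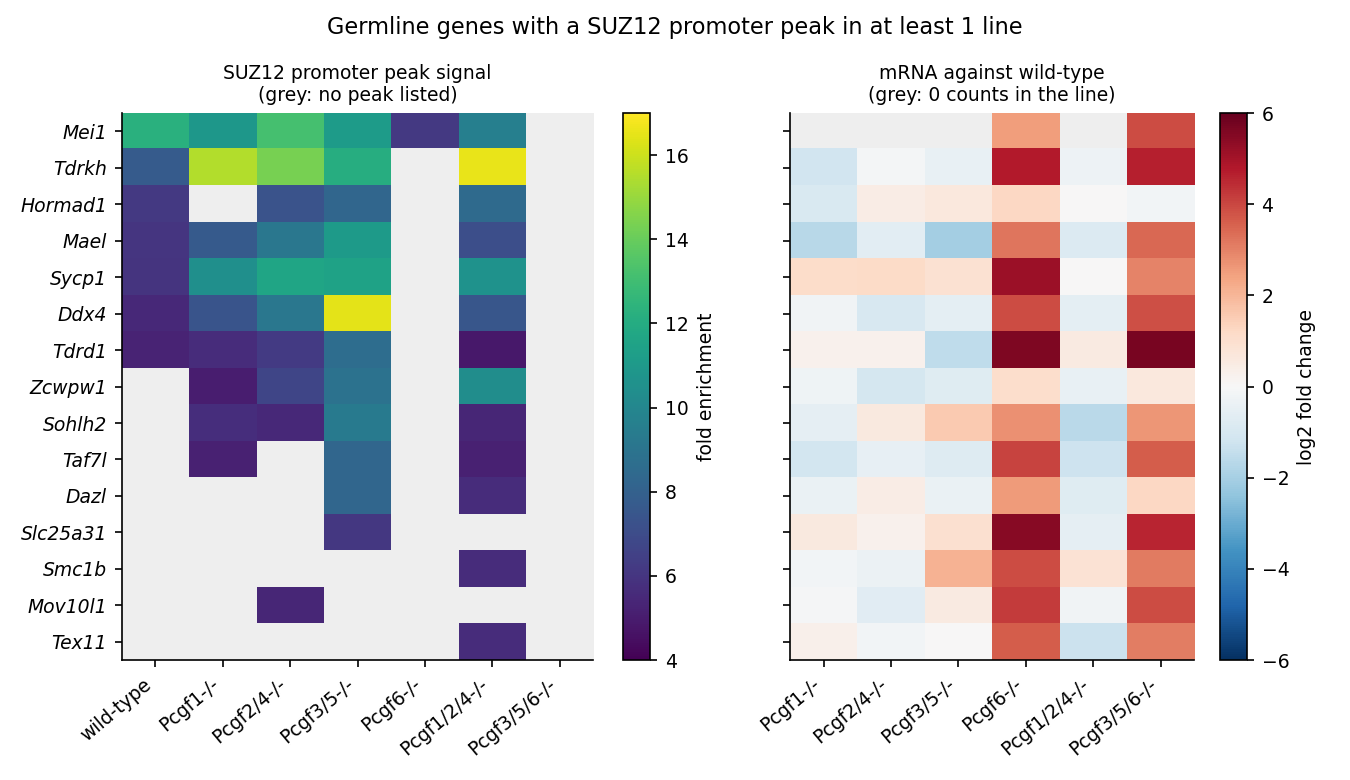
Left, signal (fold enrichment, colour) of the SUZ12 promoter peak in each list (x axis) for the 15 germline genes (y axis) with a peak in at least 1 list, grey where no peak is listed. Right, log2 fold change of the mRNA against wild-type. The columns Pcgf6-/- and Pcgf3/5/6-/- are grey on the left except for Mei1 in Pcgf6-/-, and red on the right except for Hormad1 in Pcgf3/5/6-/-.

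Hox promoter peaks were lost mainly in Pcgf1/2/4-/-. There 6 of 36 bound Hox genes had no promoter peak, against 26.2% of all bound genes: Hoxa9, Hoxa10, Hoxc12, Hoxd4, Hoxd8 and Hoxc4. Hoxc4 also had none in Pcgf1-/- and Pcgf3/5-/-. The share of Hox genes was thus below that of all bound genes, but Hox promoter peaks were stronger. Their median wild-type signal was 19.7, against 10.2 over all bound genes. In the strongest of the 4 signal groups of wild-type peaks (13.65 or more), Pcgf1/2/4-/- lacked 2.78%. The part of signal in this comparison was not tested. The Hoxa10 peak had the highest wild-type signal of any promoter peak lost in any of the 6 lines. The Hoxa10 peak (chr6:52181343-52185762) had signals of 30.5 in wild-type, 22.8 in Pcgf1-/-, 24.9 in Pcgf2/4-/-, 35.8 in Pcgf3/5-/-, 39.7 in Pcgf6-/- and 25.3 in Pcgf3/5/6-/-, and the nearest listed peak in Pcgf1/2/4-/- was 9141 bp away. In Pcgf6-/- the Hoxa9 and Hoxa10 promoters shared 1 peak of 13684 bp. Taken per Hox gene, median widths of promoter peaks were 2956.5 bp over 36 genes in wild-type, 7052 bp over 39 in Pcgf6-/- and 999 bp over 30 in Pcgf1/2/4-/-. A peak shared by neighbouring genes counted for each of them.

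Hoxa10 stood at 3.97 CPM in wild-type and at 43.3 and 47.4 CPM in Pcgf1/2/4-/- (log2 difference 3.51, SE 0.25, edgeR adjusted p = 6.76e-07). Hoxa9 stood at 1.28 CPM in wild-type and at 17.1 and 17.2 CPM in Pcgf1/2/4-/-, a log2 fold change of 3.72. Of 18 Hox genes with enough counts to test, edgeR called 11 raised and 0 lowered in Pcgf1/2/4-/-, where 14.4% of tested genes were raised and 22.6% lowered. In the same line all 20 ribosomal protein genes, which have a housekeeping role, were also called raised, with a median log2 fold change of 1.39 beside 1.66 for the Hox genes. Their medians were 0.73 in Pcgf2/4-/- and 0.80 in Pcgf3/5/6-/-, and -0.05 to 0.14 in the other lines. With the wild-type pair summed, 10 of 20 ribosomal protein genes and 12 of 21 tested Hox genes were raised in Pcgf1/2/4-/-. The part of library composition in these calls was not tested. For Hox genes the counts were 11 raised and 1 lowered in Pcgf1-/- (13.9% and 18.4% of tested genes), 10 and 0 in Pcgf2/4-/- (8.1% and 13.5%), and 1 and 1 in Pcgf3/5-/- (11.1% and 10.4%). SUZ12 peaks covered more of each cluster in Pcgf6-/- and Pcgf3/5/6-/- than in the other lists. In Pcgf6-/- 0 Hox genes were raised and 7 lowered (27.8% and 18.6% of tested genes). In Pcgf3/5/6-/- 1 was raised and 8 lowered (28.0% and 25.3%). The Hox genes that passed the count filter are those with RNA in at least 1 line, so these counts do not stand for all 39.

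Developmental transcription factors outside the Hox clusters kept nearly all their peaks. Of 79 annotated genes of the list, 78 had a wild-type promoter peak, and all 78 kept it in 5 of the 6 lines. Pcgf1/2/4-/- lacked 5 (6.41%, against 26.2% of all bound genes), those of Meis1, Zic2, Foxd3, Tbx20 and Otx2. The peaks of this list were strong, and in the strongest of the 4 signal groups of wild-type peaks Pcgf1/2/4-/- lacked 2.78%. The median signal in Pcgf1/2/4-/- at the 73 genes that had a peak was 11.4, against 24.8 at the 78 in the wild-type list. Over all genes with a promoter peak these medians were 7.57 and 10.2, a smaller difference. The lists are not scaled to each other, and the part of the list as a whole in the lower signal was not tested. Meis1, a homeobox partner of HOX proteins, had a signal of 17.1 in wild-type and was raised in Pcgf1/2/4-/- from 7.01 CPM to 25.6 and 29.4 CPM (log2 fold change 1.97, SE 0.28, edgeR adjusted p = 0.000137). Tbx20, a T-box factor of heart development, was raised from 8.93 CPM to 24.6 and 23.5 CPM (1.42). Zic2 and Foxd3 lost their listed peak as well and were not called, at 9.61 and 6.77 CPM for Zic2 (wild-type 10.6) and 3.20 and 1.36 CPM for Foxd3 (wild-type 4.74).

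Meis2 was the 1 gene of that list without a wild-type peak, and had new peaks in Pcgf1-/- (signal 8.67, width 2103 bp), Pcgf6-/- (21.2, 5387 bp) and Pcgf3/5/6-/- (12.6, 2860 bp). In Pcgf6-/- this was the third strongest new promoter peak, after those of Tmsb4x (27.8) and Gm10837 (26.1). Meis2 RNA stood at 87.8 CPM in wild-type and at 30.7 and 30.1 CPM in Pcgf3/5/6-/-, a log2 fold change of -1.53 (SE 0.14, edgeR adjusted p = 7.33e-07). In Pcgf6-/- it stood at 69.0 and 69.7 CPM (-0.34, edgeR adjusted p = 0.0282), a call lost when both wild-type libraries were summed (log2 fold change -0.34) and when any 1 library was left out (-0.38 to -0.30).

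Signalling genes showed new and lost peaks at single promoters. Of 56 ligands, receptors and antagonists, 48 had a wild-type promoter peak, and 1 to 3 of these were lost in each line. That is 2.08% to 6.25% of the 48, against 3.74% to 27.8% of all bound genes, and lower in each line. The median wild-type signal of the 48 was 17.8, against 10.2 over all bound genes. In the strongest of the 4 signal groups of wild-type peaks, the lines lacked 0% to 2.78%. The part of signal in the lower shares was not tested. Bmp4, a ligand of the bone morphogenetic protein pathway, had no wild-type peak and new peaks in Pcgf3/5-/- (signal 7.99), Pcgf6-/- (10.1) and Pcgf3/5/6-/- (8.30). Its RNA stood at 164 CPM in wild-type, at 29.5 and 23.6 CPM in Pcgf6-/- and at 26.2 and 29.4 CPM in Pcgf3/5/6-/-, log2 fold changes of -2.62 (SE 0.12, edgeR adjusted p = 1.21e-09) and -2.56 (SE 0.13, edgeR adjusted p = 4.08e-09). In Pcgf3/5-/- it stood at 127 and 114 CPM (-0.44, edgeR adjusted p = 0.0123), a call lost without either wild-type library or without the second Pcgf3/5-/- library (-0.46 to -0.36). Jag1, a Notch ligand, had a signal of 11.7 in wild-type and no peak in Pcgf6-/- and Pcgf3/5/6-/-. It was raised in both, from 3.62 CPM to 9.21 and 9.96 CPM and to 11.1 and 8.11 CPM, calls that were lost without the second wild-type library (log2 fold changes 1.018 and 1.021) and, in Pcgf3/5/6-/-, without its first library (1.15). Dkk1, a secreted Wnt antagonist, lacked its peak in Pcgf3/5/6-/- alone and was raised there from 7.79 CPM to 40.1 and 37.2 CPM (log2 fold change 2.31, SE 0.17, edgeR adjusted p = 1.2e-07).

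Of 29 genes of PRC1 subunits, 11 had a wild-type promoter peak. Of these, 2 had none in Pcgf1-/-, 0 in Pcgf2/4-/-, 1 in Pcgf3/5-/-, 2 in Pcgf6-/-, 4 in Pcgf1/2/4-/- and 2 in Pcgf3/5/6-/-, against 16.1%, 3.74%, 10.2%, 20.5%, 26.2% and 27.8% of all bound genes. With 11 members, 2 lost peaks are 18.2%. Yaf2, of variant PRC1, had a signal of 7.78 in wild-type and 8.23 in Pcgf2/4-/-, and no peak in the other 5 lists. Its RNA was raised in Pcgf1-/- (24.9 to 36.7 and 42.3 CPM, log2 fold change 0.66) and Pcgf6-/- (39.0 and 46.3 CPM, 0.77). Yaf2 RNA in the other lines without its peak is not reported here. E2f6, the E2F subunit of the PCGF6 complex, had a signal of 6.60 in wild-type and none in Pcgf6-/-, Pcgf1/2/4-/- and Pcgf3/5/6-/-. Fbrsl1 had a new peak in Pcgf2/4-/- alone (7.88) and was raised there, from 2.34 CPM to 7.96 and 11.4 CPM (log2 fold change 2.13). Cdkn2a, a cell cycle inhibitor gene, had a signal of 6.52 in wild-type and no peak in Pcgf6-/-, Pcgf1/2/4-/- and Pcgf3/5/6-/-. It was raised in all 3, from 5.73 CPM to 14.4 ± 1.78, 14.5 ± 0.673 and 19.8 ± 3.02 CPM (mean ± SD, n = 2).

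Of 17 annotated pluripotency genes, 1 had a wild-type promoter peak. New peaks appeared at Dppa3 (signal 8.65) and Prdm14 (6.78) in Pcgf6-/- and at Prdm14 (9.35), Fgf4 (6.09) and Tbx3 (5.71) in Pcgf3/5/6-/-. They made 12.5% and 18.75% of the 16 genes unbound in wild-type, against 1.59% and 1.32% of all unbound genes. Dppa3, a gene of naive pluripotency and early germ cells, was raised in Pcgf6-/-, where it had its new peak, from 25.1 CPM to 90.9 and 96.7 CPM (log2 fold change 1.90). Prdm14 stood at 65.5 CPM in wild-type, 61.8 and 59.3 CPM in Pcgf6-/- and 44.9 and 36.8 CPM in Pcgf3/5/6-/-, and was called lowered in the latter (-0.68). Tbx3 was lowered in Pcgf3/5/6-/-, from 325 CPM to 198 and 178 CPM (-0.79).

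The strongest lost promoter peaks differed between lines. Stronger lost peaks lay away from promoters in Pcgf3/5/6-/- (signal up to 22.3) and in Pcgf2/4-/- and Pcgf3/5-/- (up to 12.1), and are not named. In Pcgf1-/- the strongest lost promoter peaks were Lef1 (signal 17.6), a transcription factor of Wnt signalling, Tlx2 (17.3), a homeobox gene of enteric neurons, and D130058E05Rik (15.1). The lost Lef1 peak lay 1950 bp from the start of the gene, and a Pcgf1-/- peak was listed 1612 bp from it. The Tlx2 peak lies 6.63 kb from the edited Pcgf1 gene on chromosome 6, and a weaker Lbx2 peak 5.34 kb from it was also lost, whereas a second Lbx2 peak 6.49 kb away was kept. In Pcgf1/2/4-/-, which lacks the same gene, the Tlx2 peak was listed with a signal of 8.22, and the Lbx2 peak 5.34 kb away was lost again. Lef1 stood at 55.6 and 55.1 CPM in Pcgf1-/- against 66.7 CPM in wild-type, a lowered call (log2 fold change -0.27) that was lost under other scalings and when any 1 library was left out (-0.28 to -0.15), and Tlx2 was not called.

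In Pcgf2/4-/- and in Pcgf3/5-/- the promoter of Lrrn2, a leucine-rich repeat protein of neurons, lost its peak (signal 10.2 in wild-type). Lrrn2 stood at 12.7 CPM in wild-type and was lowered in Pcgf2/4-/- (4.61 and 5.88 CPM, log2 fold change -1.20) and raised in Pcgf3/5-/- (32.1 and 28.0 CPM, 1.25), so the same listed loss went with opposite calls. The lowered call was lost without the second wild-type library (-1.03). In Pcgf6-/- the strongest lost promoter peaks were Kcnk6 (17.5), a potassium channel gene, A830073O21Rik (17.2) and Golim4 (17.1), a Golgi membrane protein. Golim4 was raised from 5.74 CPM to 21.4 and 21.0 CPM (log2 fold change 1.88, SE 0.21, edgeR adjusted p = 4.6e-06), and Kcnk6 stood at 4.48 and 3.52 CPM against 4.39 CPM (not called).

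In Pcgf3/5/6-/- the strongest lost promoter peaks were Cacna1h (19.2), a T-type calcium channel gene, A830073O21Rik and Fbxo32 (17.1), an F-box ubiquitin ligase of muscle. Cacna1h, whose peak was listed in all other lines, had 1 count in the 2 wild-type libraries and stood at 5.37 and 5.07 CPM in Pcgf3/5/6-/- (32 counts, edgeR adjusted p = 3.23e-05). Cdx1, a caudal homeobox gene, had a new peak in Pcgf3/5/6-/- alone (signal 11.3, width 976 bp). Its RNA fell from 56.1 CPM to 2.53 and 2.03 CPM, a log2 fold change of -4.60 (SE 0.28, edgeR adjusted p = 1.71e-08). Hoxc13 had new peaks in Pcgf3/5/6-/- (12.4) and Pcgf6-/- (9.85), and stood at 4.42 and 3.04 CPM in Pcgf3/5/6-/- against 10.6 CPM, a lowered call (-1.50) lost without the second Pcgf3/5/6-/- library (-1.28).

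Over all genes tested, the RNA of genes that lost their promoter peak differed between lines. Of 583 tested genes without their peak in Pcgf6-/-, 330 (56.6%) were raised and 58 (9.95%) lowered. Of 1866 genes that kept it 799 (42.8%) were raised and 351 (18.8%) lowered, beside 27.8% and 18.6% of all genes. In Pcgf3/5/6-/- 541 of 806 genes without their peak were raised (67.1%) and 56 lowered (6.95%). Of 1643 genes with it 882 were raised (53.7%) and 221 lowered (13.45%), beside 28.0% and 25.3% of all genes. In Pcgf1-/- 120 of 442 genes without their peak were raised (27.1%) and 76 lowered (17.2%), against 21.3% and 21.6% of genes that kept it and 13.9% and 18.4% of all genes. In Pcgf3/5-/- 67 of 279 were raised (24.01%) and 22 lowered (7.88%), against 19.2% and 13.6% of kept and 11.1% and 10.4% of all genes. In Pcgf1/2/4-/- 145 of 737 were raised (19.7%) and 121 lowered (16.4%), against 13.1% and 15.7% of kept and 14.4% and 22.6% of all genes. In Pcgf2/4-/- 12 of 95 were raised (12.6%) and 34 lowered (35.8%), against 8.67% and 24.9% of kept and 8.1% and 13.5% of all genes. The median log2 fold changes of these genes were 0.82 in Pcgf6-/-, 1.31 in Pcgf3/5/6-/-, 0.11 in Pcgf1-/-, 0.15 in Pcgf3/5-/-, -0.01 in Pcgf1/2/4-/- and -0.34 in Pcgf2/4-/-. Raised and lowered genes together were 44.3% of these genes in Pcgf1-/-, 48.4% in Pcgf2/4-/- and 31.9% in Pcgf3/5-/-, and without the second wild-type library 27.6%, 28.1% and 16.5%. In Pcgf1/2/4-/- they were 36.1%, and 20.1% without its second library. With the wild-type pair summed, the shares in these 4 lines were 33.3%, 33.3%, 22.9% and 27.8%.

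Genes that gained a promoter peak were lowered in 99 of 204 cases (48.5%) and raised in 28 (13.7%) in Pcgf3/5/6-/-, where 25.3% of all genes were lowered and 28.0% raised. In Pcgf1/2/4-/- 57 of 173 were lowered (33.0%) and 15 raised (8.67%), beside 22.6% and 14.4% of all genes. In Pcgf6-/- the directions were nearly even, with 59 of 222 lowered (26.6%) and 61 raised (27.5%), beside 18.6% and 27.8%. In Pcgf1-/- 60 of 246 were lowered (24.4%) and 41 raised (16.7%), beside 18.4% and 13.9%. In Pcgf2/4-/- 170 of 948 were lowered (17.9%) and 105 raised (11.1%), beside 13.5% and 8.1%. In Pcgf3/5-/- 58 of 394 were lowered (14.7%) and 51 raised (12.9%), beside 10.4% and 11.1%. The median log2 fold changes were -0.59 in Pcgf3/5/6-/- and -0.52 in Pcgf1/2/4-/-, and lay between -0.12 and -0.03 in the other 4 lines. Called genes in either direction were 41.1% of these genes in Pcgf1-/-, 29.0% in Pcgf2/4-/- and 27.7% in Pcgf3/5-/-, and without the second wild-type library 26.6%, 16.6% and 15.5%. In Pcgf1/2/4-/- they were 41.6%, and 24.02% without its first library. Bound genes have low RNA, with a median of 2.77 CPM in wild-type for tested genes that kept their peak in Pcgf6-/- and 7.22 CPM for those that lost it. The median over all tested genes was 28.2 CPM, and the part of RNA level in the shares of called genes was not tested.

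Peak counts departed most from the ratio over all chromosomes on chromosomes 14, 19 and X. Chromosome 14 had 185 wild-type peaks, 262 in Pcgf3/5-/- (a ratio of 1.42, against 0.983 over all chromosomes) and 268 in Pcgf6-/- (1.45 against 1.04), and 37.8% and 45.2% of these were new. The median log2 fold change of the 451 tested genes of chromosome 14 was 0.25 in Pcgf3/5-/- and 0.04 in Pcgf6-/-, beside medians over all genes of 0.00 and 0.03. The X chromosome had 137 wild-type peaks and 85 in each triple knockout, a ratio of 0.620 in both, against 0.838 in Pcgf1/2/4-/- and 0.829 in Pcgf3/5/6-/- over all chromosomes. The median log2 fold change of the 557 tested genes of the X chromosome was -0.25 in Pcgf1/2/4-/- and 0.28 in Pcgf3/5/6-/-, beside -0.11 and 0.05 over all genes. Chromosome 19 had 213 wild-type peaks and 236 in Pcgf3/5/6-/-, a ratio of 1.11, with 26.3% of these new. The number of copies of these chromosomes was not tested.

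Each triple knockout was also set directly against the lines that lack part of the same genes. Of the Pcgf1-/- peaks 26.7% were not listed in Pcgf1/2/4-/-, and of the Pcgf2/4-/- peaks 45.0%. Of the Pcgf3/5-/- peaks 33.1% were not listed in Pcgf3/5/6-/-, and of the Pcgf6-/- peaks 35.3%. The Pcgf6-/- peaks missing from Pcgf3/5/6-/- lay at promoters in 52.8% of cases, against 74.2% for those shared.

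As a check of the labels, Pcgf1 fell from 63.6 CPM to 4.81 and 3.20 CPM in Pcgf1-/- and to 0.534 and 0.903 CPM in Pcgf1/2/4-/-. Pcgf6 had 0 counts in both Pcgf6-/- libraries against 35.3 CPM in wild-type, but stood at 42.0 and 37.2 CPM in the libraries labelled Pcgf3/5/6-/-, and Pcgf2, Bmi1 and Pcgf3 were not called lowered in their lines. Pcgf5 was lowered in Pcgf3/5-/-, from 11.9 CPM to 5.48 and 4.60 CPM, but stood at 16.4 and 13.5 CPM in the libraries labelled Pcgf3/5/6-/-, as well as being lowered in Pcgf1-/- and Pcgf2/4-/-. A small edit need not lower the count of a gene, so these counts do not test it. The 9 stem cell markers were all above 1 CPM in every line, with summed levels of 1809 to 3744 CPM. The summed level of 6 primitive endoderm markers was 3.09 to 3.57 CPM in wild-type, 48.1 to 55.0 CPM in Pcgf6-/-, 56.6 to 65.2 CPM in Pcgf3/5/6-/-, 14.95 to 15.8 CPM in Pcgf1/2/4-/- and 0.229 to 6.42 CPM in the other lines, and 4 of the 6 were at 0 in wild-type. The 5 trophoblast markers summed to 103 to 107 CPM in wild-type, 45.9 to 46.0 CPM in Pcgf6-/- and 227 to 232 CPM in Pcgf3/5/6-/-, with 63.3 to 149 CPM in the other lines. The 5 fibroblast markers summed to 10.8 to 15.0 CPM in wild-type, 27.3 to 30.4 CPM in Pcgf6-/-, 35.5 to 38.2 CPM in Pcgf3/5/6-/- and 1.07 to 18.7 CPM in the other lines. The part of these marker levels in the SUZ12 and RNA differences was not tested.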

How the data were processed

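SUZ12 was mapped by ChIP-seq in 7 lines, 1 library each, and RNA in the same genotypes, 2 libraries each (14 in all). Per the submitters' processing notes, reads were processed with Bowtie 1.2.2, TopHat2 2.1.1, Picard 1.62, HTSeq 0.7.2 and MACS2 2.1.1 on mm9, with no role stated for each. The authors deposited 1 peak list per sample with a linear fold enrichment (signal, column 7) and −log10 p and q values; every listed peak had a −log10 p of at least 10, and the lists held 67.1% to 75.3% of the highest peak number in them, by a filter that is not given in the sources used here. Deposited RNA-seq values are raw read counts per gene symbol, without normalization, and strand use is not given. Spike-in scaling was not used here.

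Peaks of the 7 lists were compared as deposited (Python 3.11.15, pandas 2.3.3; overlaps checked against bedtools 2.31.1), with GENCODE M1 on NCBIM37 for starts, and the sequences are from that build. Counts of all 14 libraries entered 1 edgeR 4.0.16 quasi-likelihood fit in R 4.3.3 with TMM factors after filterByExpr, which left 15464 of 23377 genes. P-values were adjusted by Benjamini-Hochberg over those genes with a threshold of 0.05. Of the 23377 symbols, 19446 matched the annotation. Library totals ran from 2147968 to 7848161 counts, and CPM values use TMM-adjusted totals. The common biological coefficient of variation was 12.3%. Replicate libraries are not named as separate cultures, so p-values measure the spread between these libraries, which may be technical. The wild-type libraries differed by less than sampling noise (chi-square per degree of freedom 0.954, against 1.2 to 21.1 in the other pairs) and are printed as their mean. Both enter the fit, and summing them was an alternative added after seeing the data. The fit was tested on simulated counts.

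Genes named are those of the 8 strongest wild-type promoter peaks, the 3 strongest lost and 3 strongest new promoter peaks of each line, up to 4 lost or new members of each gene list and line, and the targeted genes. Otx2, Hoxd8, Hoxc4 and other members beyond 4, and the motif counts, were added after their values were seen. Some items that meet these rules are not reported here. The members, the 9 gene lists and the tests were chosen with earlier results of these data known. Alternatives changed the overlap rule, the q threshold, the list length, the merging of peaks, the scaling, the count filter, the test, the replicate block and single libraries. Per-sample columns that matched no sample numbered 0.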

Additional observations from a re-analysis of the deposited data

How the results depend on the processing

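The order of lines by lost peaks rests on the called lists. Keeping only peaks with a −log10 q of at least 10 in the list that is counted, lost peaks were 782 in Pcgf1-/-, 240 in Pcgf2/4-/-, 471 in Pcgf3/5-/-, 816 in Pcgf6-/-, 1389 in Pcgf1/2/4-/- and 1226 in Pcgf3/5/6-/-, and new peaks 227, 1269, 450, 845, 166 and 359. With every list limited to its 5364 strongest peaks, lost peaks were 831 in Pcgf1-/-, 712 in Pcgf2/4-/-, 705 in Pcgf3/5-/-, 1066 in Pcgf6-/-, 1366 in Pcgf1/2/4-/- and 1198 in Pcgf3/5/6-/-, and new peaks 789, 867, 860, 1181, 894 and 1116, so Pcgf2/4-/- was no longer the line with the fewest lost or most new peaks. Counting peaks within 1 kb as shared gave 325 lost in Pcgf2/4-/- and 1109 and 486 new in Pcgf6-/- and Pcgf3/5/6-/-. Merging peaks within 1 kb gave 291 lost in Pcgf2/4-/- and 826 and 418 new in the same lines. Peaks with none of the other list within 5 kb, a setting chosen after seeing the data, were 239 of the lost ones in Pcgf2/4-/- and 616 in Pcgf3/5-/-, and 778 and 379 of the new ones in Pcgf6-/- and Pcgf3/5/6-/-. Of the 72 counts of lost and new peaks under these alternatives, 46 moved by less than 1.5 times.

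Leaving out single libraries changed the share of tested genes called (edgeR) among those with a lost promoter peak to 27.6 to 37.5% in Pcgf1-/- (44.3% with all libraries), 28.1 to 42.7% in Pcgf2/4-/- (48.4%), 16.5 to 22.4% in Pcgf3/5-/- (31.9%), 55.6 to 60.1% in Pcgf6-/- (66.5%), 20.1 to 26.3% in Pcgf1/2/4-/- (36.1%) and 61.5 to 64.5% in Pcgf3/5/6-/- (74.1%). For genes with a new peak the shares were 25 to 31.7% (41.1%), 16.6 to 31.5% (29.0%), 15.5 to 18.9% (27.7%), 42.2 to 43.0% (54.0%), 24.02 to 34.1% (41.6%) and 50.5 to 54.3% (62.2%) in the same order. Counts moved by over 1.5 times without wild-type replicate 1 or 2 in Pcgf1-/-, Pcgf2/4-/- and Pcgf3/5-/-, and also without replicate 1 of Pcgf1-/- (lost peaks), replicate 1 of Pcgf3/5-/-, replicate 1 of Pcgf1/2/4-/- and replicate 2 of Pcgf1/2/4-/- (lost peaks). Replicate numbers did not pair the libraries: deviations of same-numbered libraries correlated by -0.0228 to 0.0597. With the replicate block the shares were 41.4%, 41.0%, 28.3%, 64.7%, 34.5% and 73.2% for lost peaks and 38.6%, 26.9%, 25.1%, 51.4%, 41.6% and 58.8% for new peaks. Over the single genes, 45 of 702 recomputed values lost their call, 1 gained one and 0 changed sign. Depth limits weak peaks and genes with few counts most, and 1 ChIP library per line leaves the error between libraries unknown.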
